A study of Mus musculus with 6 samples.

Results

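The troponin genes were followed in brown adipose tissue (BAT) of 3 mice fed a high-fat diet (HFD) and 3 mice fed a low-fat diet (LFD). The members are the 8 genes whose symbols are *Tnnc1*, *Tnnc2*, *Tnni1*, *Tnni2*, *Tnni3*, *Tnnt1*, *Tnnt2* and *Tnnt3*, and all 8 were found by symbol among the 47729 genes of the deposited tables. The family was chosen by its measured HFD against LFD levels in these mice, so its diet values are given as a description and not as evidence for that difference. The study asked how the BAT transcriptome differs between lean and diet-induced obese mice.

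All 6 animals were wild-type male C57BL/6J mice that were housed singly and received their diet for 4 weeks, from 6 to 10 weeks of age. The HFD supplied 45% of calories from fat, and the LFD was a standard rodent chow. The right interscapular BAT of each mouse gave 1 library of ribosome-depleted RNA read in single-end mode, and no animals were pooled. The mice of each diet were picked to span the greatest, a medium and the least fat mass, and no source used here says which replicate number is which.

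Troponin is the calcium switch of striated muscle and sits on the thin filament with actin and tropomyosin. Troponin C binds calcium, troponin I holds the filament in its inhibited state, and troponin T anchors the complex to tropomyosin. Fast skeletal fibres use *Tnnc2*, *Tnni2* and *Tnnt3*, slow skeletal fibres use *Tnnc1*, *Tnni1* and *Tnnt1*, and the adult heart uses *Tnni3*, *Tnnt2* and also *Tnnc1*, so that *Tnnc1* is a gene of both slow and cardiac muscle. Brown adipocytes are not known for a sarcomere, but they share an embryonic origin with skeletal muscle, and the interscapular pad lies against skeletal muscle.

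The genes form 3 close pairs in the mouse genome (GRCm38, GENCODE M21). *Tnni2* (chr7:142441808-142444410, plus strand) and *Tnnt3* (chr7:142498836-142516009, plus strand) are both fast and have *Lsp1* between them. *Tnnt1* (chr7:4504570-4516382, minus strand) and *Tnni3* (chr7:4518305-4524229, minus strand) join a slow and a cardiac gene with 1922 bases between them. *Tnni1* (chr1:135779434-135810989, plus strand) and *Tnnt2* (chr1:135836354-135852260, plus strand) also join a slow and a cardiac gene, with *Lad1* between them. *Tnnc1* (chr14:31208312-31211729, plus strand) and *Tnnc2* (chr2:164777161-164779967, minus strand) each lie alone.

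The promoters of the fast gene *Tnnc2* and of the 3 slow genes are shown because the levels of these classes went apart in single mice, as described later. Each line gives the 120 bases before a RefSeq start site, read 5′ to 3′ on the strand of the gene (RefSeq, GRCm38.p6). Capitals mark matches on either strand to the E-box CANNTG, which is the core that bHLH factors bind, to the MCAT element CATTCC and to the TATA box TATAAA.
Tnnc2 (chr2:164779735-164779854, minus strand): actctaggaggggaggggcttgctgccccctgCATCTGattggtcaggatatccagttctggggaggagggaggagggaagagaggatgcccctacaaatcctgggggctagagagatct
Tnnc1 (chr14:31208192-31208311, plus strand): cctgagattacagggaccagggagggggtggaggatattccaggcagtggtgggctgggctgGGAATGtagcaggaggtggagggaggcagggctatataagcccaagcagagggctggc
Tnni1 (chr1:135799301-135799420, plus strand): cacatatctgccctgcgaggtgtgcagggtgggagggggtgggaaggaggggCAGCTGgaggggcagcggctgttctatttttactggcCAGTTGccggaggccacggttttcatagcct
Tnnt1 (chr7:4515976-4516095, minus strand): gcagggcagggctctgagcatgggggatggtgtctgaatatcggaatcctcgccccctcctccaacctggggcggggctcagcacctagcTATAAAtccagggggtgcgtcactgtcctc

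The 4 windows did not share 1 of these elements. *Tnnc2* had 1 E-box that begins 88 bases before the start, and *Tnni1* had E-boxes at 68 and 31 bases in the window shown. The other *Tnni1* window (chr1:135799391-135799510), before another start site, held none of these elements. *Tnnc1* had 1 MCAT element at 58 bases, on the reverse strand, and *Tnnt1* had a TATA box at 30 bases. Among the 32851 promoter windows of the same length, 40.2% held an E-box, 5.82% an MCAT element and 6.34% the TATA box, so an E-box in particular is a frequent match. The MEF2 site, searched by name on both strands and present in 1.33% of all windows, was found in none of the 8 windows of the 6 members that have an entry. The fast genes *Tnni2* and *Tnnt3* have none, so *Tnnc2* is the only fast gene seen here. A match or a missing match describes only the letters of this window.

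Between 17156991 and 21603487 rounded counts were available per mouse, so that 3 counts corresponded to 0.139 to 0.175 CPM, which are counts scaled to the library total. Levels are given as TPM, which is scaled for gene length and can be compared between genes, and counts are given where few reads stand behind a value. Mitochondrially encoded genes took 8.50% to 22.7% of the counts in HFD-fed mice and 3.87% to 13.8% in LFD-fed mice. *Ucp1*, the uncoupling protein that defines brown adipocytes, stood between 796 and 4021 TPM in HFD-fed mice. In LFD replicates 1 to 3 it was at 443, 11.0 and 76.0 TPM. The tissue label thus has little support from this marker in LFD replicate 2. LFD replicate 3 had the lowest sum of all brown adipocyte markers listed later, at 331 TPM, against 588 TPM in LFD replicate 2. The other brown adipocyte markers, named after their values were seen, were mostly below every HFD-fed mouse in LFD replicates 2 and 3. In both mice this held for *Cidea*, *Elovl3*, *Dio2*, *Prdm16*, *Cox7a1*, *Cox8b* and *Otop1*. *Cidea* was at 18.85 and 38.6 TPM, below the 222 to 734 TPM of HFD-fed mice. *Ppargc1a* was within their 6.48 to 16.01 TPM in LFD replicate 2, at 7.45 TPM, and below in LFD replicate 3, at 1.84 TPM. *Ebf2* was within the HFD range in both mice. *Zic1*, at 5.11 and 11.4 TPM, was above the 2.98 to 3.44 TPM of HFD-fed mice. Because whole tissue was sequenced, fewer muscle cells in a piece and less troponin RNA per cell cannot be told apart.

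The fast skeletal genes were the most abundant troponins in BAT of every LFD-fed mouse and were low in all HFD-fed mice. *Tnnt3*, the fast troponin T, was at 965, 2052 and 279 TPM in LFD replicates 1 to 3 and at 6.63, 35.2 and 0.31 TPM in HFD replicates 1 to 3. *Tnnc2*, the fast calcium sensor, was at 533, 1378 and 156 TPM in LFD-fed mice and at 3.44, 16.1 and 0.37 TPM in HFD-fed mice. *Tnni2*, the fast inhibitory subunit, was at 568, 1227 and 149 TPM in LFD-fed mice and at 3.98, 17.6 and 1.93 TPM in HFD-fed mice. In all 3 genes replicate 2 was highest and replicate 3 lowest within each diet, and the diets did not overlap.

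The lowest summed fast level of an LFD-fed mouse (584 TPM in replicate 3) was 8.49-fold above the highest of an HFD-fed mouse (68.8 TPM in replicate 2). Within one diet the spread was also wide, since the summed fast level differed 7.97-fold between the highest and lowest LFD-fed mice and 26.4-fold between the highest and lowest HFD-fed mice. The means were 2435 ± 2061 TPM (SD, n = 3) in LFD-fed mice and 28.5 ± 35.4 TPM (SD, n = 3) in HFD-fed mice. The log2 fold change of HFD over LFD was −6.61 (SE 1.51) for *Tnnc2*, −6.31 (SE 1.58) for *Tnnt3* and −6.19 (SE 1.19) for *Tnni2*. In HFD replicate 3 these levels rest on 3 counts of *Tnnc2*, 5 of *Tnnt3* and 21 of *Tnni2*, while the lowest LFD count of any fast gene was 1099.

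**Figure D1:**
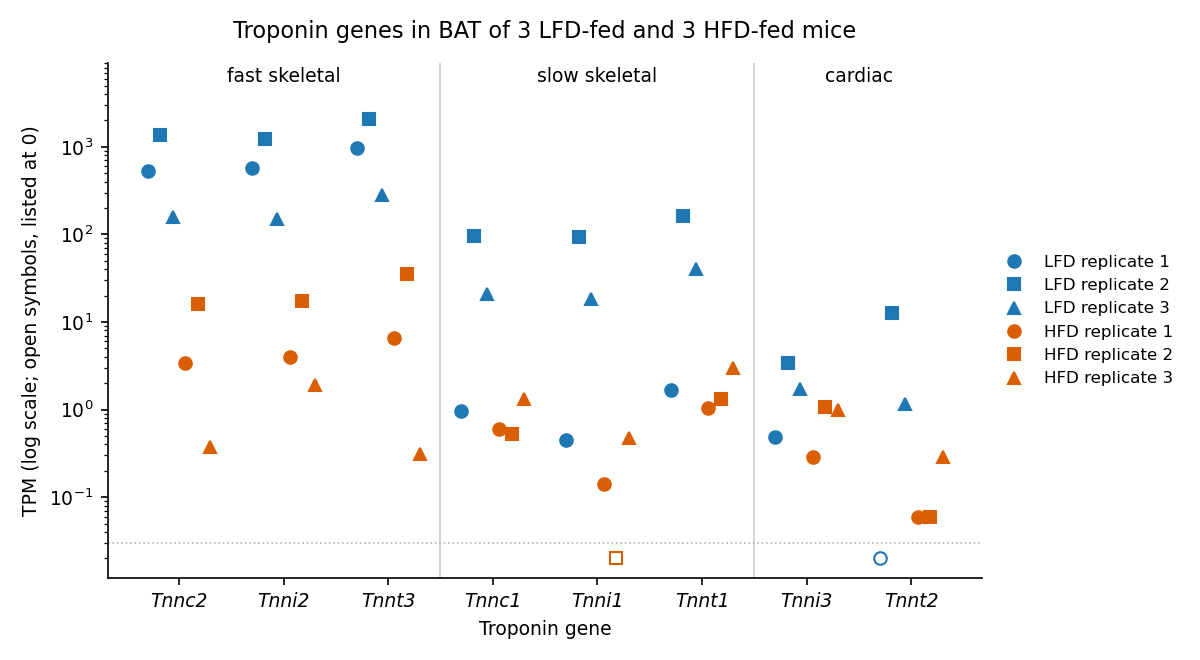
TPM of the 8 troponin genes in each of the 6 mice, on a log scale, with LFD-fed mice in blue and HFD-fed mice in orange; the symbol shape gives the replicate number, and open symbols below the dotted line mark genes listed at 0. The fast genes separate the diets, whereas LFD replicate 1 lies among the HFD-fed mice in the slow genes.

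The slow skeletal genes did not follow the fast genes in every LFD-fed mouse. *Tnnt1*, the slow troponin T, was at 1.69, 163 and 40.1 TPM in LFD replicates 1 to 3 and at 1.03, 1.33 and 2.99 TPM in HFD replicates 1 to 3. *Tnnc1*, the slow and cardiac calcium sensor, was at 0.96, 96.1 and 20.9 TPM in LFD-fed mice and at 0.60, 0.53 and 1.33 TPM in HFD-fed mice. *Tnni1*, the slow inhibitory subunit, was at 0.45, 94.5 and 18.1 TPM in LFD-fed mice and at 0.14, 0 and 0.47 TPM in HFD-fed mice. LFD replicates 2 and 3 were high in all 3 slow genes, and LFD replicate 1 was below HFD replicate 3 in all 3, so the diets overlapped in TPM. Between mice of the same replicate number each slow gene was lower in TPM in the HFD-fed mouse. For *Tnnc1* the LFD over HFD ratio in TPM was 1.60, 181 and 15.7 in replicates 1 to 3. In replicate 1 few counts stood behind this, at 8 with HFD against 11 with LFD for *Tnnc1* and 3 against 7 for *Tnni1*. *Tnnt1* was near a tie there, with 16 counts with HFD and 15 with LFD.

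LFD replicate 1 held 11 counts of *Tnnc1*, 7 of *Tnni1* and 15 of *Tnnt1*, beside 5433, 6044 and 10590 counts of their fast partners. The highest LFD level was 100-fold above the lowest for *Tnnc1*, 96.4-fold for *Tnnt1* and 210-fold for *Tnni1*, against 7.35-fold to 8.83-fold for the fast genes. The log2 fold change was −5.23 (SE 1.40) for *Tnnc1* and −4.92 (SE 1.41) for *Tnnt1*, and it was −3.26 and −3.08 without LFD replicate 2. *Tnni1* was too low to pass the filter on low counts, with 3, 0 and 6 counts in HFD-fed mice, and its log2 fold change without that filter was −7.00 (SE 1.56), a value that depends on the prior count of the fit. A count of 0 in HFD replicate 2 allows up to 3 counts, or 0.151 CPM.

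The cardiac genes were near the limit of detection in most mice. *Tnni3*, the cardiac inhibitory subunit, was at 0.49, 3.42 and 1.74 TPM in LFD replicates 1 to 3 and at 0.29, 1.08 and 1.00 TPM in HFD replicates 1 to 3, with 3 to 23 counts, and the diets overlapped. Its log2 fold change was −0.74 (SE 0.64). *Tnnt2*, the cardiac troponin T, was at 0, 12.5 and 1.17 TPM in LFD-fed mice and at 0.06, 0.06 and 0.29 TPM in HFD-fed mice. Only LFD replicate 2, with 160 counts, stood clear of the others, which held 0 to 11 counts, and LFD replicate 1 was the lowest of the 6 mice.

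A gene was called where its adjusted p was under 0.01 and its log2 fold change was beyond 1.5 in either direction. By edgeR's quasi-likelihood test none of the 6 members that passed the filter (all but *Tnni1* and *Tnnt2*) was called, and 0.0% of the 17668 tested genes were. Their adjusted p ran from 0.173 for *Tnni2* to 0.790 for *Tnni3* in edgeR, with Benjamini-Hochberg adjustment over all tested genes, and 5 of the 6 had an unadjusted p under 0.05 and a lower level with HFD, as did 6.62% of all tested genes. The call depended on the tool, since DESeq2 with default settings called 6 of the 8 members lower (*Tnnc1*, *Tnnc2*, *Tnni1*, *Tnni2*, *Tnnt1* and *Tnnt3*) beside 1.5% of its 20275 genes, and none higher, beside 0.523%. On the log2 CPM scale 4 of the 6 tested members (*Tnnc1*, *Tnnc2*, *Tnni2* and *Tnnt3*) had every HFD-fed mouse below every LFD-fed mouse, and 9.23% of all tested genes did. None had every HFD-fed mouse above every LFD-fed mouse, as 6.72% of all tested genes did. Since these values chose the family, nothing is read from them.

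A change common to all muscle RNA of a library cancels in the ratio of fast to slow RNA within a mouse, and this ratio set single animals apart rather than diets. LFD replicate 1 had 666 times as much fast as slow troponin in summed TPM, LFD replicate 2 had 13.2 times and LFD replicate 3 had 7.38 times. HFD replicate 1 had a ratio of 7.94 and HFD replicate 2 a ratio of 37.0, both inside the LFD range. HFD replicate 3 was the exception with a ratio of 0.545, and it was the one mouse with more slow than fast troponin, at 4.79 against 2.61 TPM.

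**Figure D2:**
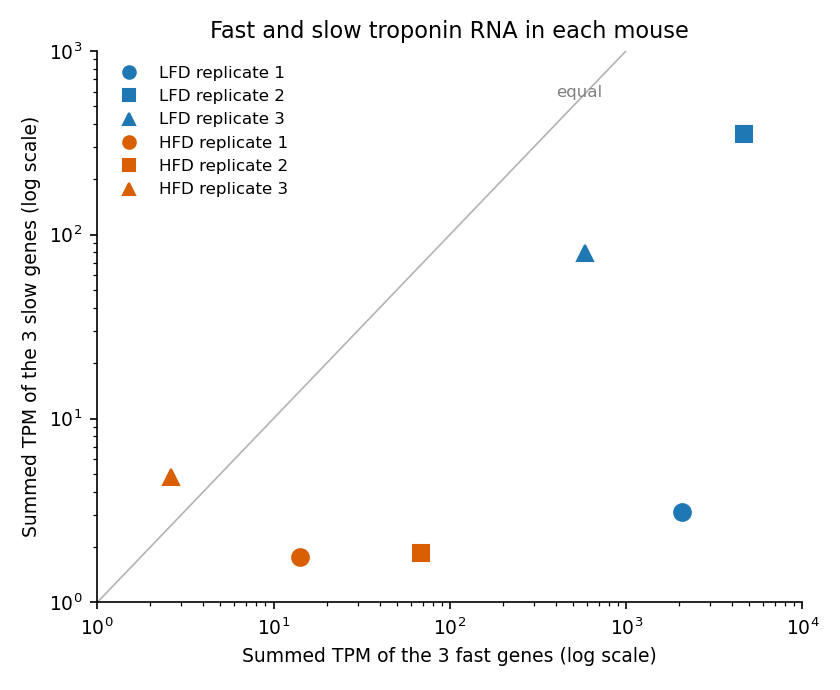
Summed TPM of the 3 fast genes (x axis) and of the 3 slow genes (y axis) in each mouse, both on log scales; the grey line marks equal levels. LFD replicate 1 combines 2066 TPM of fast with 3.10 TPM of slow troponin, and HFD replicate 3 is the one mouse above the line.

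As a share of the fast and slow counts, fast troponin made up 99.85% (95% exact Clopper-Pearson interval 99.79% to 99.90%) in LFD replicate 1, 92.2% (92.0% to 92.5%) in LFD replicate 2 and 87.1% (86.2% to 88.0%) in LFD replicate 3. It made up 87.4% (82.2% to 91.5%) in HFD replicate 1, 97.6% (96.2% to 98.6%) in HFD replicate 2 and 35.8% (25.4% to 47.2%) in HFD replicate 3. These intervals cover counting error only. The shares of the LFD-fed mice differed beyond it, and the intervals of HFD replicate 1 and LFD replicate 3 overlapped. In TPM the mean share was 73.8 ± 33.7% (SD, n = 3) in HFD-fed mice and 93.6 ± 5.92% (SD, n = 3) in LFD-fed mice. The difference of −19.8 percentage points came to −0.53 without HFD replicate 3, and it was smaller than the spread between mice.

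The pairs of isoforms gave the same picture in troponin C and troponin T and a weaker one in troponin I. In HFD replicate 3 the fast share of counts was 18.8% (4.05% to 45.6%) for troponin C and 13.2% (4.41% to 28.1%) for troponin T, but 77.8% (57.7% to 91.4%) for troponin I. In the other 5 mice it lay between 83.7% and 99.8% for troponin C, between 86.1% and 100% for troponin I and between 84.3% and 99.86% for troponin T. The order of the LFD-fed mice, with replicate 1 first and replicate 3 last, held in all 3 pairs.

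**Figure D3:**
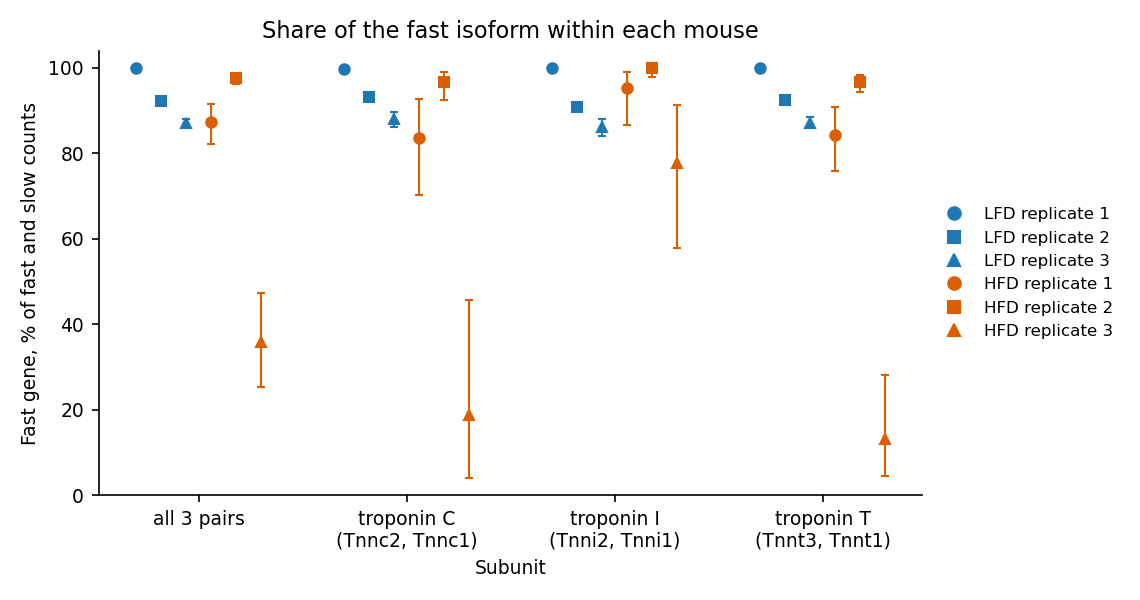
Fast gene as a percent of the fast and slow counts in each mouse, for all 3 pairs together and for each subunit; points are mice and bars are 95% exact Clopper-Pearson intervals of the counts. HFD replicate 3 lies lowest throughout, at 35.8% over all pairs, and its intervals are the widest.

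Within the fast class the subunits kept nearly fixed proportions where their counts were high. Troponin T made up 44.1% to 47.8% of the fast TPM in LFD-fed mice, troponin I 25.5% to 27.5% and troponin C 25.8% to 29.6%. HFD replicates 1 and 2 had 47.2% and 51.1% troponin T, close to those values, although their fast levels were far lower. HFD replicate 3 departed with 74.0% troponin I, which rests on the 21 counts of *Tnni2*. The order of *Tnnc2* and *Tnni2* changed between mice, while *Tnnt3* was the highest of the 8 genes in every mouse except HFD replicate 3, where *Tnnt1* was highest.

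The slow class was also led by its troponin T in every mouse. *Tnnt1* made up 46.1% to 54.5% of the slow TPM in LFD-fed mice and 58.2% to 71.5% in HFD-fed mice, and *Tnni1* made up 14.5% to 26.7% and 0% to 9.81%. In HFD-fed mice and in LFD replicate 1 these proportions rest on 16 to 52 counts in all. Troponin RNA of all 8 genes together took 0.0666% to 0.503% of the TPM in LFD-fed mice and 0.000869% to 0.00718% in HFD-fed mice.

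The genes whose profile over the 6 mice was most like that of each troponin class were looked up among all tested genes. Likeness was the root mean square (RMS) difference of centred log2 CPM, for which a smaller value is closer and the median over all tested genes was 3.79 for the fast profile. The 5 closest genes were *Atp2a1*, the calcium pump of fast fibres (0.28), *Myot*, the Z-disc protein myotilin (0.33), *Tcap*, the titin cap (0.34), *Mylpf*, the fast regulatory light chain (0.38), and *Klhl31* (0.42). *Atp2a1* was at 316, 665 and 79.7 TPM in LFD replicates 1 to 3 and at 2.63, 8.84 and 0.22 TPM in HFD replicates 1 to 3, so its order among the mice matched that of *Tnnc2*.

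The slow profile had fewer close followers. The 5 nearest genes were *Thbs4*, a secreted matrix protein (0.99), *Myl3*, the slow and ventricular essential light chain (1.00), *Mup7*, a major urinary protein (1.298), *Sln*, the calcium pump inhibitor sarcolipin (1.31), and *Lrrn1* (1.31), against a median of 2.71 over all tested genes. *Myl3* was at 2.94, 49.7 and 15.2 TPM in LFD replicates 1 to 3 and at 0.19 to 0.31 TPM in HFD-fed mice, which shows the same low LFD replicate 1. Among the members themselves, *Tnnc2* and *Tnnt3* differed by 0.23 and *Tnnc1* and *Tnnt1* by 0.25. Pairs within the fast class reached 0.93 and within the slow class 0.76, and a fast and a slow gene differed by 2.56 to 3.43. *Tnnt2* lay closer to the slow genes *Tnnt1* (0.91) and *Tnnc1* (0.98) than to the other cardiac gene *Tnni3* (1.58), and was 1.59 from *Tnni1*. The 3 genes most like *Tnni3* were *Olfr1033* (0.11), *Gm37960* (0.12) and *Gm42681* (0.13), against a median of only 0.77 over all tested genes. The *Tnni3* profile is flat and rests on 3 to 23 counts, so these small values cannot be set beside those of the other profiles. These are descriptions over 6 mice in which the diet difference is part of every profile.

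The other genes of the thin filament were counted beside the troponins from a list of 12. None met the edgeR thresholds in either direction, and their median log2 fold change was −5.28 against −0.05 over all tested genes. In log2 CPM 11 of the 12 had every HFD-fed mouse below every LFD-fed mouse, beside 9.23% of all tested genes. *Acta1*, skeletal actin, was at 872, 2336 and 486 TPM in LFD replicates 1 to 3 and at 8.30, 37.9 and 0.68 TPM in HFD replicates 1 to 3. *Tpm1* and *Tpm2*, the α and β tropomyosins that troponin T binds, had log2 fold changes of −1.77 (SE 0.37) and −3.30 (SE 0.55), which are smaller than those of the fast and slow troponins. *Tpm2* still stood at 25.9 to 69.5 TPM in HFD-fed mice, and in each of them it was above every troponin of the same mouse.

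The fast and slow genes of the thick filament, the Z-disc and calcium handling were counted in the same way. All 12 fast fibre partners had every HFD-fed mouse below every LFD-fed mouse in log2 CPM, beside 9.23% of all tested genes. Their log2 fold changes had a median of −5.99, and none met the edgeR thresholds. *Mylpf* was at 823, 1784 and 279 TPM in LFD replicates 1 to 3, *Myh4*, the IIb myosin heavy chain, at 267, 973 and 63.2 TPM, and both had LFD replicate 1 well above LFD replicate 3. Of the 12 slow fibre partners 6 were below in the same way, beside the same 9.23%. The median of the slow list was −3.00, and again none was past the thresholds. The 3 most abundant slow fibre partners, *Tpm3*, *Fhl1* and *Atp2a2*, overlapped between diets in log2 CPM, although *Fhl1* did not overlap in TPM. *Atp2a2*, the calcium pump of slow and cardiac muscle that other cells also use, stood at 48.6 to 122 TPM in all mice.

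*Myh7*, the slow myosin heavy chain, and its fast counterparts were chosen for display after their values were seen. *Myh7* was at 0.84, 80.3 and 22.3 TPM in LFD replicates 1 to 3 and at 0.20, 0 and 0 TPM in HFD replicates 1 to 3, so LFD replicate 1 was low in this slow myosin. Not every slow gene was, since *Mybpc1*, the slow myosin binding protein, also named after its values were seen, was at 38.3 TPM in LFD replicate 1 and 35.3 TPM in LFD replicate 3. The fast share of myosin heavy chain TPM (*Myh1*, *Myh2* and *Myh4* against *Myh7*) was 99.8%, 94.3% and 88.6% in LFD replicates 1 to 3, beside 99.85%, 92.9% and 88.1% for troponin. In HFD replicates 1 to 3 the myosin heavy chain share was 96.3%, 100% and 100%. For calsequestrin, the calcium store protein (*Casq1* against *Casq2*), the fast share was 96.1%, 84.5% and 81.1% in LFD-fed mice. In HFD-fed mice it was 54.8%, 19.0% and 11.2%. Myosin light chain (*Myl1* and *Mylpf* against *Myl2* and *Myl3*) gave 99.55%, 91.05% and 83.2% with LFD and 99.2%, 97.5% and 98.6% with HFD. Myosin binding protein (*Mybpc2* against *Mybpc1*) gave 53.4%, 40.7% and 27.05%, and 42.0%, 37.3% and 66.7%. Only for calsequestrin was every HFD-fed mouse below every LFD-fed mouse. These pairs were named with their values known. In HFD replicate 3 troponin and myosin heavy chain differed. The heavy chains held 18 fast counts and no *Myh7* count, while troponin held 29 fast and 52 slow counts.

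Of the 14 cardiac muscle genes, 7 passed the filter and none met the edgeR thresholds. In log2 CPM 3 of the 7 were lower and 1 higher in every HFD-fed mouse than in every LFD-fed mouse. Of all tested genes 9.23% were lower and 6.72% higher in this way. The higher cardiac gene was *Ryr2*, a calcium release channel, at 0.62 to 1.13 TPM in HFD-fed mice and 0.03 to 0.04 TPM in LFD-fed mice. *Nkx2-5* and *Gata4*, transcription factors that define cardiac muscle, had 0 counts in all 6 mice, *Myh6*, the atrial and adult mouse heart myosin, had 0 to 6 counts, and *Myl7*, an atrial light chain, had 0 or 1 count (these genes were chosen after their values were seen). The 3 most abundant genes of the list, *Myl4*, *Sln* and *Actc1*, stood highest in LFD replicate 2, at 47.8, 39.4 and 31.2 TPM, as did *Tnnt2* and *Tnni3*. *Sln* and *Actc1* are also used by skeletal muscle.

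The genes next to the members were compared in the same fit. The nearest protein-coding genes that were tested and are no members (*Stab1*, *Sema3g*, *Dnttip1*, *Snx21*, *Phlda3*, *Lsp1*, *Mrpl23* and *Ppp1r12c*) had log2 fold changes from −0.67 to 0.38, and *Lad1*, *Syt8*, *Syt5* and *Pkp1* were too low to test. *Lsp1*, which lies between *Tnni2* and *Tnnt3*, was at 25.5 to 353 TPM in LFD-fed mice and at 66.9 to 141 TPM in HFD-fed mice. Within the chr7 pair of *Tnnt1* and *Tnni3*, LFD replicate 2 held 1494 counts of the slow gene and 23 of the cardiac gene.

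Some members overlap other genes in the annotation, and the sources used here do not give the strand setting of the counting. *Tnnc1* overlaps *Nisch* on the opposite strand, which held 3400 to 5660 counts in every mouse, and without a known strand setting reads of *Nisch* among the 5 to 13 counts of *Tnnc1* in HFD-fed mice and the 11 counts in LFD replicate 1 cannot be told apart. *Tnnc2* overlaps *Ube2c* (28 to 548 counts) and *Tnnt3* overlaps *Prr33* (56 to 352 counts), both on the opposite strand. *Tnni3* overlaps *Dnaaf3* on the same strand, and the 12 to 68 counts of *Dnaaf3* were more than those of *Tnni3* in every mouse.

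The skeletal muscle markers were low in the same mice as the fast troponins. The 15 skeletal muscle markers summed to 1129 to 6607 TPM in LFD-fed mice and to 35.0 to 285 TPM in HFD-fed mice. Their median log2 fold change was −5.73, and none met the edgeR thresholds. In 14 of the 15 every HFD-fed mouse was below every LFD-fed mouse in log2 CPM, beside 9.23% of all tested genes. *Ckm*, muscle creatine kinase, was at 853, 1767 and 243 TPM in LFD replicates 1 to 3 and at 3.58, 26.3 and 0.06 TPM in HFD replicates 1 to 3, and *Eno3*, muscle enolase, followed the same order in LFD-fed mice. Muscle tissue beside the pad and muscle genes inside it cannot be told apart from this list, and its part in the troponin values was not tested.

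In the lists of other cell types again no member met the edgeR thresholds. Overlap was judged in log2 CPM. Of all tested genes 9.23% had every HFD-fed mouse below every LFD-fed mouse, and 6.72% had every HFD-fed mouse above. The 8 smooth muscle markers had a median log2 fold change of −0.14 and 1 that did not overlap, *Des*, which skeletal muscle also expresses, while *Acta2* and *Tagln* overlapped. The 11 brown adipocyte markers had a median of 1.60 and summed to 1857 to 7336 TPM in HFD-fed mice and 331 to 2074 TPM in LFD-fed mice, with *Ucp1* the most abundant, and 2 of them had every HFD-fed mouse above every LFD-fed mouse. The 6 white adipocyte markers, led by *Adipoq*, *Retn* and *Plin1*, had a median of −0.98 and none that did not overlap. The 8 macrophage markers, led by *Lyz2*, *Cd68* and *Mrc1*, had a median of 0.81 and 3 with every HFD-fed mouse above every LFD-fed mouse. The part of these cell types in the troponin values was not tested. The calls of the muscle lists depended on the tool as those of the troponins did. DESeq2 called 10 of 12 thin filament genes and 12 of 12 fast fibre partners lower in HFD-fed mice. It also called 5 of 12 slow fibre partners and 14 of 15 skeletal muscle markers lower, beside 1.5% of its 20275 genes.

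**Figure D4:**
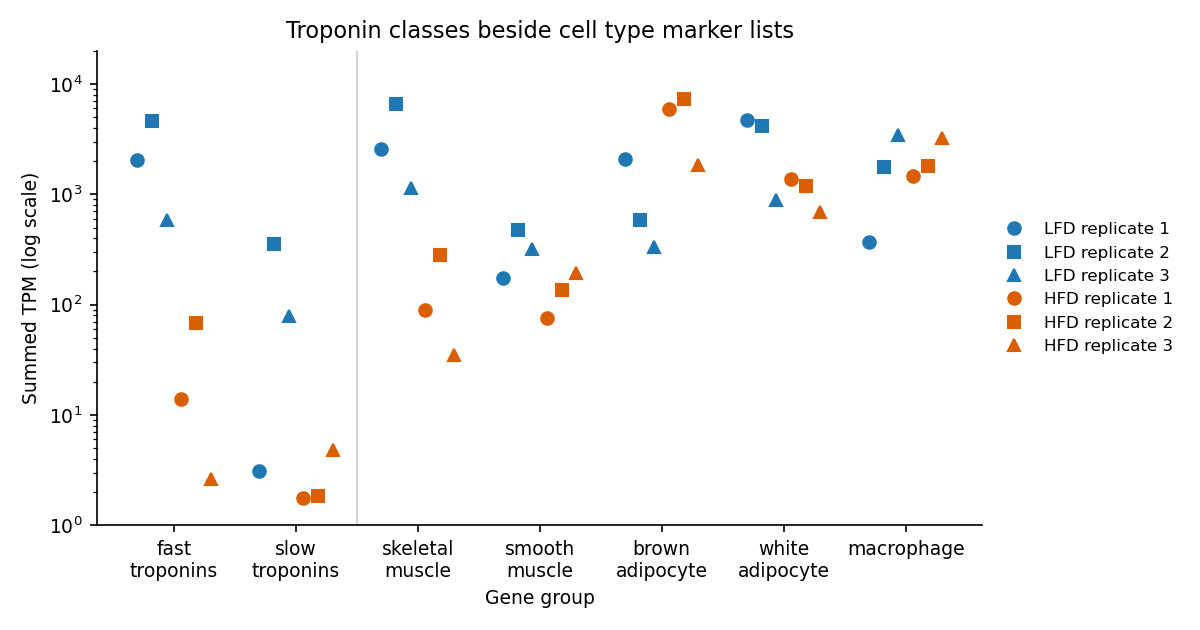
Summed TPM of the fast and slow troponins and of 5 lists of cell type markers in each mouse, on a log scale. The skeletal muscle list follows the fast troponins, with 1129 to 6607 TPM in LFD-fed mice and 35.0 to 285 TPM in HFD-fed mice, and not the slow troponins, where LFD replicate 1 stands with the HFD-fed mice.

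The mix of transcripts was read from the abundance-weighted length that RSEM gives for each gene, a measure that did not choose the family. It was tested for *Tnni2* and *Tnnt1*, the members with at least 10 counts in every mouse. The *Tnni2* length was 721.8 ± 34.4 bases (SD, n = 3) in HFD-fed mice and 681.2 ± 9.24 bases (SD, n = 3) in LFD-fed mice, a difference of 40.6 bases with p = 0.10 in a two-sided exact permutation test (adjusted p = 0.20 over both genes), where 0.10 is the smallest p that 3 against 3 mice allow. Taken as 3 pairs by replicate number, the HFD length was greater in 3 of 3 pairs, with an exact paired p of 0.25, the smallest that 3 pairs allow. The *Tnnt1* length was 694.6 ± 87.3 bases in HFD-fed mice and 676.7 ± 90.1 bases in LFD-fed mice, with an exact permutation p of 0.70 (n = 3 per diet), and it was greater with HFD in 1 of 3 pairs. The *Tnnt1* difference of 18.0 bases was smaller than the spread between mice.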

How the data were processed

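RNA of 6 BAT samples, 3 per diet, was analysed, with diet and replicate number taken from the sample labels. Adapters were trimmed by the authors with Trimmomatic 0.36, and RSEM 1.3.0 assigned reads to genes of GRCm38.p4 (Ensembl annotation). They deposited expected counts per gene, which are not normalized, and TPM, which RSEM scales by effective length and library. The deposited expected counts were rounded to whole numbers. The study used DESeq2 1.10.1 with the thresholds applied here (adjusted p under 0.01 and absolute log2 fold change above 1.5).

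Counts were fitted by diet with edgeR 4.0.16 (TMM, filterByExpr, quasi-likelihood test, Benjamini-Hochberg adjustment over 17668 genes), in R 4.3.3. The steps were tested on simulated counts. Log2 CPM used a prior count of 2. Alternatives were DESeq2 1.42.0, limma 3.58.1 on log2(TPM + 1) and log2(TPM + 0.1), RLE size factors, other count filters, mitochondrially encoded genes left out, each mouse left out, and the replicate number as a block. Mice with the same replicate number deviated together from their diet means (r across genes 0.50, 0.23 and 0.52). The label numbers were therefore taken as pairs in side comparisons, although no source says what a number marks. The main fit was unpaired.

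The members, gene lists and tests were chosen with earlier results of these data known. Named genes were the members, their chromosomal neighbours, the 3 most abundant genes of each list, and the 5 genes nearest each skeletal class and 3 nearest *Tnni3* in profile. Other genes are marked as chosen after their values were seen. Promoter windows came from RefSeq (GRCm38.p6), and 6 of 8 members had an entry.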

Additional observations from a re-analysis of the deposited data

How the results depend on the processing

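edgeR called 0 genes in either direction, with 1851 genes at an unadjusted p under 0.05, and none of the troponins. DESeq2 with default settings called 305 genes lower and 106 higher in HFD-fed mice and 6 troponins, and limma on log2(TPM + 1) called 1 gene higher. The cause was not tested. With the replicate block no gene was called either. The paired log2 fold changes were −7.07 (SE 0.52) for *Tnnc2*, −6.99 (SE 0.68) for *Tnnt3* and −6.20 (SE 0.33) for *Tnni2*, with edgeR adjusted p of 0.0182, 0.0312 and 0.0102. They were −4.08 for *Tnnc1* and −3.66 for *Tnnt1*, with edgeR adjusted p of 0.227 and 0.291. This contrast chose the family and the pairs were read from the same data, so nothing is read from these p-values. The block changed no other call. No member changed sign in any alternative. With 1 mouse left out the counts of calls stayed at 0, and the log2 fold changes ran from −5.78 to −3.26 for *Tnnc1*, −7.99 to −5.99 for *Tnnc2*, −7.17 to −5.70 for *Tnni2*, −7.75 to −5.73 for *Tnnt3*, −5.48 to −3.08 for *Tnnt1* and −1.04 to −0.14 for *Tnni3*.

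The median of the fast minus that of the slow log2 fold changes was −1.23 with 2 slow genes, since *Tnni1* did not pass the filter. It was −1.08 with all 3 slow genes and no filter. Also without *Tnni1*, it was −3.12 with the replicate block and −3.46 and −3.52 with limma on log2(TPM + 1) and log2(TPM + 0.1). With 1 mouse left out it ran from −2.82 to −0.23, and the fits at both ends of this range held *Tnni1*. The fast share difference ran from −31.6 to −0.53 percentage points with 1 mouse left out, the value nearest 0 being that without HFD replicate 3. The *Tnni2* length difference ran from 20.7 to 51.4 bases, and that of *Tnnt1* from −34.0 to 66.3 bases, with −18.6 without HFD replicate 1 and −34.0 without LFD replicate 1. The exact paired test of these lengths by replicate number was added after seeing the data. Under log2(TPM + 1) the median of all genes moved to −0.18. A filter of 10 counts in every mouse left *Tnni2* and *Tnnt1* as the members tested. Few counts limit what can be said of *Tnni1*, *Tnni3* and *Tnnt2*, and of the slow genes in HFD-fed mice.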

Other observations

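Transcription factors known to act on troponin genes in muscle were counted from a list. Of 18 regulators on the list 16 were tested, none met the edgeR thresholds, and the median log2 fold change was −0.83. In log2 CPM 5 had every HFD-fed mouse below every LFD-fed mouse, beside 9.23% of all tested genes. *Mef2a*, the most abundant, was at 25.1, 64.8 and 64.3 TPM in LFD replicates 1 to 3 and at 26.9, 54.9 and 60.2 TPM in HFD replicates 1 to 3, so the diets overlapped. *Mef2c* and *Nfix* had log2 fold changes of −0.95 (SE 0.38) and −0.99 (SE 0.33) and did not overlap in log2 CPM. Larger differences, chosen after their values were seen, were those of *Tead1*, which binds MCAT elements, at −1.77 (SE 0.28), and of its cofactor *Vgll2* at −4.98 (SE 1.21), both called by DESeq2. *Myod1* was too low to test in edgeR, with 8, 105 and 6 counts in LFD replicates 1 to 3 and 0 counts in all HFD-fed mice. *Myog* was also too low, with 1, 147 and 11 counts against 0, 1 and 0 in HFD-fed mice. DESeq2 gave both an adjusted p under the threshold of 0.01 (0.000644 for *Myod1* and 0.0056 for *Myog*).

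Genes listed for developing and regenerating muscle were highest in the same mouse as *Tnnt2*, LFD replicate 2. The summed skeletal muscle markers were also highest in that mouse, at 6607 TPM, so this was not particular to the developmental list. *Myh3*, the embryonic myosin heavy chain, was at 0, 31.6 and 1.34 TPM in LFD replicates 1 to 3 and at 0.01 TPM or less in HFD-fed mice. *Myh8*, the perinatal myosin heavy chain, was at 0.20, 25.4 and 1.02 TPM in LFD-fed mice and at 0.11 to 0.67 TPM in HFD-fed mice, and *Myf6*, a myogenic factor, was at 3.36, 25.8 and 2.78 TPM in LFD-fed mice and at no more than 0.05 TPM in HFD-fed mice. Of the 10 genes on this list 9 were measured and 4 tested, and none met the edgeR thresholds. In fetal skeletal muscle *Tnnt2* is also expressed. What sets LFD replicate 2 apart was not tested.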
